A study of Drosophila melanogaster with 7 samples.

Results

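Binding of the zinc-finger protein CLAMP to the chromatin of S2 cells, a male embryonic line of Drosophila melanogaster, was set against control rabbit IgG in the same line. The binding was described through 5399 consensus regions out of 13525 merged CLAMP regions on the main chromosome arms. A consensus region was a stretch of merged peak intervals held by at least 2 of the 3 S2 CLAMP libraries and overlapping no peak of the S2 IgG library. The assay was CUT&RUN. A nuclease is tethered through an antibody to the protein of interest in unfixed cells, and the fragments it cuts free are sequenced. The groups were 3 CLAMP libraries and 1 IgG library, all from untreated S2 cells labelled male and grown in the same medium. No further genotype was given. Since no label ties the replicates to separate cultures, p-values reflect only how these libraries vary among themselves, and that variation may be technical. Of the 7 libraries of the series, the 3 from the female line were not used here. Peak lists do not measure expression, so the identity of the line was not checked by marker levels.

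CLAMP recognises GA-rich DNA and is best known for helping the male-specific lethal complex find its entry sites on the male X chromosome, where that complex raises transcription. CLAMP also binds many autosomal sites, among them the promoters of the histone gene cluster, and shares its GA-repeat targets with GAGA factor, the product of Trl. Coordinates are those of the build dm6, counted from 1.

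On X, 4 and the arms 2L, 2R, 3L and 3R there were 8904, 8801 and 5535 peaks in CLAMP replicates 1, 2 and 3 and 1165 in the IgG library. Replicate 3 stood apart from the other two in several ways. Only 32.7% of its peaks had a q-value of 0.0001 or less, against 75.8% and 76.4% in replicates 1 and 2, and its peaks were narrower, with a median of 245 bp against 423 and 395 bp. The label and the deposited list of replicate 3 also carry different internal numbers. Read numbers are not in the lists, so depth is unknown and cannot be told apart from binding. With 1 IgG library the smallest possible p of an exact permutation test is 0.25, so no difference between CLAMP and IgG could pass a threshold of 0.05.

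The consensus set was largely the common ground of replicates 1 and 2. These 2 libraries alone held 3363 of the 5399 regions, all 3 libraries held 1500, replicates 2 and 3 alone held 358, and replicates 1 and 3 alone held 178. Consensus regions made up 39.9% of the merged regions, and a further 442 regions held by at least 2 libraries were set aside because an IgG peak lay in them. A single library held the other 7684 regions. Replicate 1 had a peak in 93.4% of the consensus regions, replicate 2 in 96.7% and replicate 3 in 37.7%. Seen from the lists, 61.4% and 67.8% of the peaks of replicates 1 and 2 fell in consensus regions but only 44.2% of those of replicate 3. Without replicate 3 the set held 4947 regions, whereas it fell to 1912 without replicate 1 and to 1708 without replicate 2.

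Within the regions the summits of replicates 1 and 2 lay close together. Their strongest summits were a median of 40 bp apart over 4863 shared regions, and 70.3% lay within 100 bp of each other. For replicate 3 the median distance was 100 bp to replicate 1 over 1678 regions and 110 bp to replicate 2 over 1858 regions. The rank of a region by fold, the authors' enrichment of a peak's summit over the background their caller estimated, was also shared. Across regions, Spearman's rho of the fold percentile was 0.69 between replicates 1 and 2, 0.48 between 1 and 3 and 0.52 between 2 and 3. These coefficients describe regions of the same libraries, which are not independent, and take in only regions that both libraries held.

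Consensus regions had a median width of 663 bp, with quartiles of 460 and 960.5 bp, and together covered 4.16 Mb. Regions of all 3 libraries were the widest, with a median of 918 bp, against 623 bp for replicates 1 and 2, 421 bp for replicates 1 and 3 and 454 bp for replicates 2 and 3. A region merged from more lists can be wider for that reason alone. Regions just outside the rule, held by 1 library, had a median width of 234 bp. Their median strength, the percentile of the fold within the holding list, was 35.8, against 61.4 for consensus regions. The widest consensus region spanned 4191 bp at X 11536270 to 11540460 inside Drak, a death-associated protein kinase gene, with folds of 2.19, 2.35 and 2.75 in replicates 1 to 3. Its strength of 59.1 lay close to the median of all consensus regions. Across the quintiles of strength, however, median width rose from 454 bp in the weakest to 954 bp in the strongest. At the level of single lists, the median peak width of CLAMP, 354 bp ± 95.7 (SD, n = 3), stood against the 375 bp of IgG, a difference of -20.7 bp (exact two-sided permutation p = 1). The sign turned, with CLAMP peaks wider by 34 bp without replicate 3, by 82.3 bp among peaks with a q-value of 0.0001 or less and by 353 bp with the CLAMP lists cut to the length of the IgG list.

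X carried 1110 consensus regions, 20.6% of all (95% Wilson interval 19.5 to 21.7), and had the highest density of the 6 arms. Per Mb up to the last annotated gene end, X held 47.2 consensus regions, 2R 43.1, 2L 41.5, 3R 37.05, 3L 35.6 and the small chromosome 4 35.4. X makes up 17.6% of that length and 15.3% of the genes. The X share fell to 16.6% (14.98 to 18.3) without replicate 1 and to 16.5% (14.8 to 18.3) without replicate 2. With regions of all 3 libraries it was 17.1% (15.2 to 19.1). These intervals take in the 17.6% share of length. Without replicate 3 the X share was 21.4% (20.3 to 22.6). Counting only regions of all 3 libraries, X held 10.9 per Mb, below the 12.9 of 2R and the 12.6 of 2L. A consensus region lay at 28.4% of the genes on X, against 23.7% on 4, 21.8% on 2R, 20.9% on 2L, 20.4% on 3R and 19.3% on 3L. Autosomal arms therefore spanned 19.3% to 23.7% and X stood above that range. The copy number of X in these cells was not measured, and intervals over regions cover counting error only.

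The preference for X was not shared by the 3 lists. X held 19.8% and 20.02% of the peaks in replicates 1 and 2 and 12.1% in replicate 3. At the level of genes, 37.1% of X genes and 32.3% of autosomal genes held a peak in replicate 1, and 32.8% and 22.3% did in replicate 2. In replicate 3 the order was reversed, with 9.21% of X genes and 16.5% of autosomal genes. The IgG list was the most X-rich of all, with 33.6% of its peaks on X and peaks at 9.09% of X genes against 2.45% of autosomal genes. The mean X share of the CLAMP lists was 17.3% ± 4.52 (SD, n = 3), 16.3 points below IgG (difference -16.3, exact two-sided permutation p = 0.25). With CLAMP lists cut to the length of the IgG list the difference was -8.67 points. Arm 2L went the other way, with 17.4%, 18.0% and 21.9% of the CLAMP peaks and 9.44% of the IgG peaks.

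**Figure D1:**
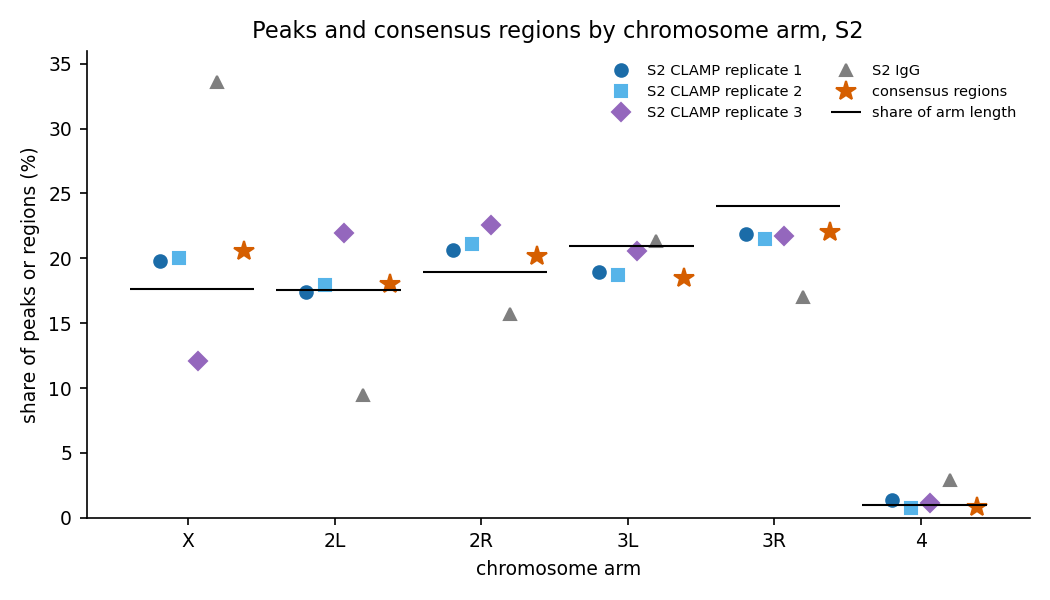
Share of peaks (%, vertical axis) on each chromosome arm (horizontal axis) in the 3 S2 CLAMP libraries and the S2 IgG library, with the share of consensus regions (stars) and of arm length up to the last gene end (lines). On X, replicates 1 and 2 lie at 19.8% and 20.02%, replicate 3 at 12.1% and IgG at 33.6%.

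Strong regions lay on X more often than weak ones. The X share of consensus regions was 15% in the weakest quintile of strength and 28.2% in the strongest, while that of 2L went from 20.6% to 13.8%. The same held for the peaks of the single lists when they were ranked by their own fold. From the lowest to the highest quintile, the X share went from 15.8% to 23.9% in replicate 1, from 14.1% to 27.5% in replicate 2 and from 11.3% to 21.8% in replicate 3. In replicate 3 the 4 lower quintiles stayed between 9.03% and 11.3%, so its X peaks were concentrated among the strongest. IgG peaks showed the pattern too, going from 20.2% to 39.9%. The median fold percentile of X peaks was 56.8, 61.0 and 62.2 in replicates 1 to 3, against 48.3, 47.04 and 48.7 for autosomal peaks, and 59.6 against 42.3 in IgG. The part of IgG-like signal in the order of the CLAMP peaks was not tested.

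**Figure D2:**
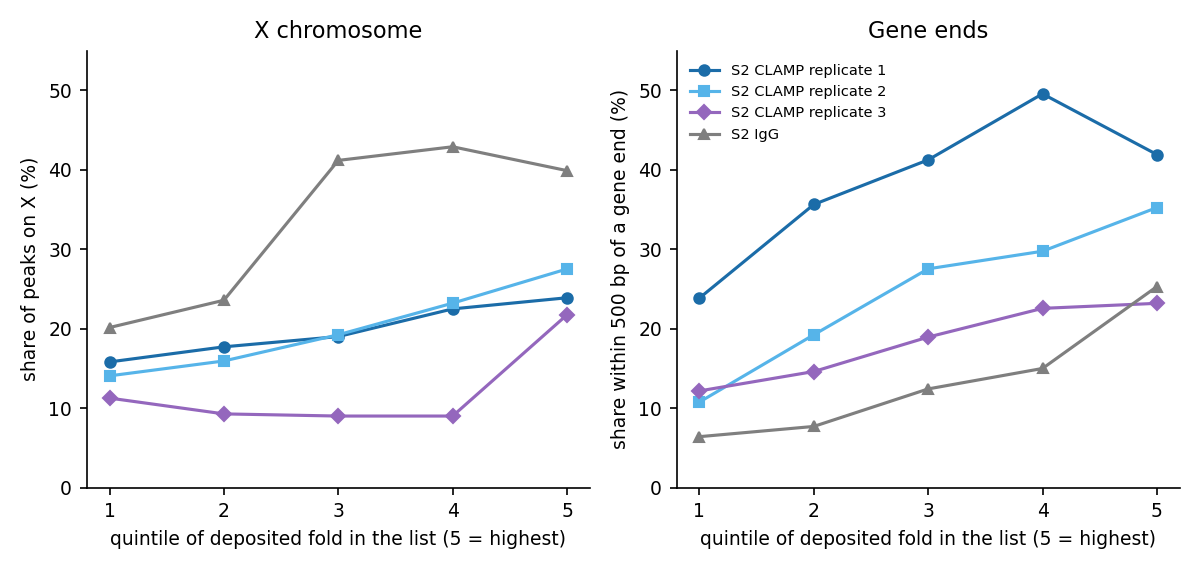
Share of peaks on X (left) and with the strongest summit within 500 bp of a gene end (right), in %, by quintile of deposited fold within each list, for the 3 S2 CLAMP libraries and S2 IgG. Both shares are higher in the highest than in the lowest quintile of all 4 lists, with X at 23.9%, 27.5% and 21.8% for CLAMP and 39.9% for IgG.

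Most consensus regions lay in or beside genes. The share of the arm length at gene ends, in gene interiors and between genes was not measured, so these shares alone show no preference. Of the IgG summits, 49.5% lay in gene interiors and 37.1% in intergenic DNA. The strongest summit fell within 500 bp of a gene end in 1686 regions (31.2%, 30.0 to 32.5), in the interior of a gene in 2625 (48.6%, 47.3 to 49.95) and in intergenic DNA in 1088 (20.2%, 19.1 to 21.2). The gene table used has no strand and no exons, so a gene end here may be a start or a 3′ end, and introns were not separated from exons. Gene-end regions were the strongest, with a median strength of 68.9, against 61.0 in gene interiors and 47.4 in intergenic DNA. The gene-end share went from 16% in the weakest quintile of regions to 42.0% in the strongest, and the intergenic share from 36% to 10.6%. In the lists, CLAMP summits lay at gene ends in 38.5%, 24.5% and 18.3% of cases and IgG summits in 13.4%, a difference of 13.7 points (exact two-sided permutation p = 0.5, smallest possible 0.25). All 3 CLAMP libraries lay above IgG, and the spread among them, an SD of 10.3 points, was nearly as large as the difference. Among the peaks of the highest quintile of fold, the gene-end share was 41.9%, 35.3% and 23.2% in CLAMP replicates 1 to 3 and 25.3% in IgG, so replicate 3 lay below IgG there.

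Gene position followed which libraries held a region. Regions of replicates 1 and 2 alone lay at gene ends in 37.1% and in intergenic DNA in 10.9% of cases. Regions of all 3 libraries lay there in 21.7% and 32.6% of cases, and regions of replicates 2 and 3 alone in 12.3% and 52.8%. Regions of replicate 1 alone, outside the consensus, were at gene ends in 57.4% of cases, against 15.9% for replicate 2 alone and 19.3% for replicate 3 alone. Replicate 1 thus had the most gene-end signal of its own. Without replicate 1 the gene-end share of the consensus was 18.3% and the intergenic share 37.5%, without replicate 2 they were 23.2% and 32.3%, and without replicate 3 they were 31.9% and 18.0%.

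**Figure D3:**
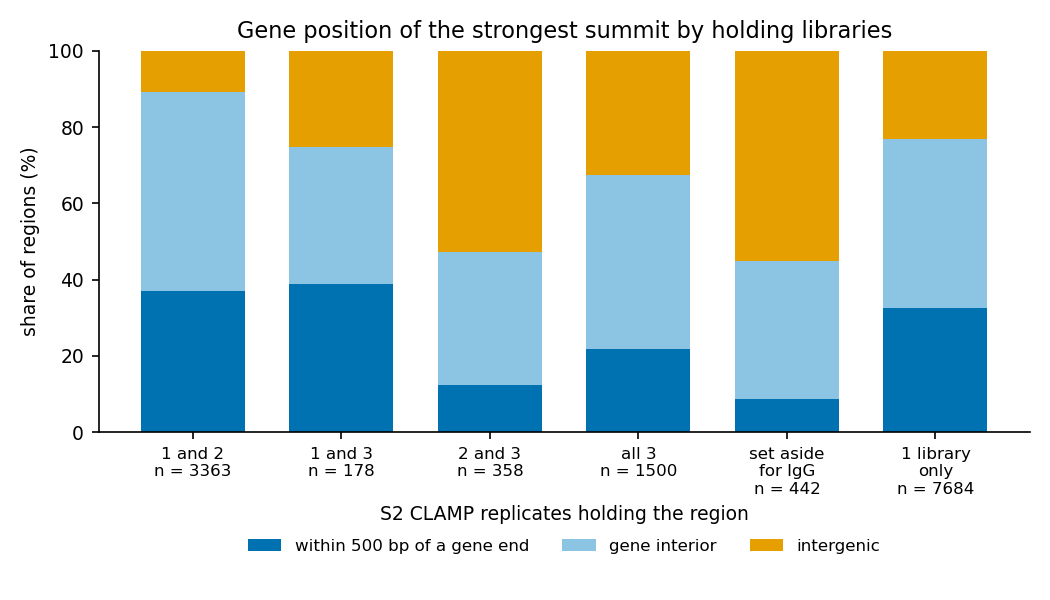
Gene position of the strongest summit (share of regions, %) for regions held by different S2 CLAMP replicates, for regions set aside for an IgG peak and for regions of 1 library. Gene ends take 37.1% of the regions of replicates 1 and 2, 21.7% of those of all 3 replicates and 8.60% of those set aside.

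Gene-poor DNA moved with this order, and its part in it was not tested. Windows of 1 Mb with fewer than 60 genes per Mb made up 13% of the arm length and held 666 consensus regions, 38.2 per Mb against 40.8 per Mb elsewhere. Of these 666 regions 63.4% were intergenic, and their median strength was 40.7 against 64.6 in the other windows. Replicates 2 and 3 alone had 48.6% of their common regions there, all 3 libraries 20.9%, and replicates 1 and 2 alone 4.10%. Outside gene-poor windows the intergenic share was still 22.9% for regions of all 3 libraries and 9.40% for those of replicates 1 and 2. Over the lists, gene-poor windows held 11.1%, 21.1% and 22.5% of the CLAMP peaks and 25.2% of the IgG peaks.

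Regions set aside for IgG differed from the consensus in where they lay. Of the 442, 30.8% lay on X (26.6 to 35.2), 55.2% were intergenic, 8.60% lay at gene ends and 40.7% lay in gene-poor windows. They took 10.9% of the eligible regions on X and 3.09% on 2L. Of the IgG peaks, 54.5% overlapped some CLAMP region and 51.1% a set-aside region. Of the CLAMP peaks, 5.54%, 5.70% and 8.20% overlapped an IgG peak. By the rule no consensus region overlapped an IgG peak. Of the consensus regions, 90 (1.67%) lay within 500 bp of one and 914 (16.9%) within 10 kb, with a median distance of 56659 bp. These distances were not set against those of random positions. A set-aside region and no consensus region lay at 71 genes.

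Consensus regions came in groups. The nearest neighbour was a median of 2178 bp away, 48.5% of the regions had a neighbour within 2 kb and 79.1% within 10 kb. The densest stretch of 100 kb lay at the histone gene cluster (2L 21400001 to 21500000), with 27 regions, 14 of them held by all 3 libraries. It was followed by 25 regions at 3R 200001 to 300000, in a window with 1 gene per Mb. Stretches with 21 regions lay over lola and psq (2R 10500001 to 10600000), around tara (3R 16200001 to 16300000) and at 3R 1 to 100000. At the histone cluster 72 of 111 genes held a consensus region, but their median strength was 24.9, far below the 74.1 of all bound genes. The count of histone genes was 41 without replicate 1 and 45 without replicate 2. The repeated copies of these genes share reads, so single copies cannot be told apart.

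A consensus region lay within 500 bp of 3855 of 17684 genes (21.8%), and of 3279 of 13922 protein-coding genes (23.6%). Regions of all 3 libraries lay at 1065 genes (6.02%). Of the bound genes 2799 held 1 region, 566 held 2 and 490 held 3 or more. Bound genes were long, with a median of 4212 bp against 1454 bp for the rest. The share bound rose from 11.7% in the shortest quintile of genes to 48.2% in the longest. Long noncoding RNA genes were bound in 13.9% of cases, tRNA genes in 20.7% and miRNA genes in 8.85%. Without replicate 1 the number of bound genes was 1104 and without replicate 2 it was 1189, against 3651 without replicate 3. A region within reach of several genes counted for each of them, which was so for 1283 regions with 2 genes and 297 with 3 or more.

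The genes with the most consensus regions were all long. Myo81F, an unconventional myosin gene of 1965857 bp in the gene-poor part of 3R, held 62 regions, 26 of them in all 3 libraries, and also 11 set-aside regions. Per 100 kb this was 3.15 regions, below the density over all arms of 40.4 regions per Mb. The nuclear receptor gene Eip75B held 20 (17.6 per 100 kb), the piRNA locus lncRNA:flam 19 (12 per 100 kb), bun, a gene of the TSC-22 family, 18 (19.8 per 100 kb) and luna, a Krüppel-like factor gene, also 18 (13 per 100 kb). These genes differed in their libraries, since 10 of the 19 flam regions but only 2 of the 20 Eip75B regions were held by all 3.

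The genes of the dosage compensation machinery were unevenly bound, with 5 of 10 holding a consensus region and 1 holding a region of all 3 libraries. That one was roX2 (lncRNA:roX2, X 11579065 to 11580432), a noncoding RNA of the male complex. Its region at X 11578922 to 11580805 covered the whole gene and had folds of 8.40, 11.8 and 4.57 in replicates 1 to 3. The corresponding percentiles within the lists were 96.1, 97.6 and 97.0, so roX2 was among the strongest in each library, and IgG had no peak there.

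The partner RNA gene roX1 (lncRNA:roX1, X 3857230 to 3862697) kept 2 regions, one inside the gene and one across its end. Its central region at X 3860818 to 3861801 was held by all 3 libraries with folds of 6.10, 11.1 and 2.20, but contained an IgG peak of fold 2.45 and was set aside. The consensus regions were at X 3857829 to 3858170, held by replicates 1 and 3 with folds of 2.06 and 2.71, and at X 3862494 to 3862773, held by replicates 1 and 2 with folds of 1.76 and 2.65. The highest roX1 folds of replicates 1 and 2 thus lay outside the consensus, and that of replicate 3 within it.

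JIL-1, the gene of a histone H3 kinase found on the male X, held a region at 3L 11092339 to 11093179. JIL-1 held none once peaks were cut to windows of 100 bp to either side of their summits. The region had folds of 6.26 in replicate 1 and 3.0 in replicate 2, and replicate 3 had no peak there. At Unr, the gene of an RNA-binding protein that acts on msl-2 mRNA, the same libraries shared a region (3L 8441249 to 8441860, folds 2.32 and 2.52). The gene of CLAMP itself (Clamp, 2L 22165720 to 22169143) held a region across one end, 2L 22168375 to 22169899, with folds of 6.69 and 4.05 in replicates 1 and 2. The peak of replicate 3 at Clamp had a fold of 1.86 and lay outside it. The subunit genes msl-1, msl-2, msl-3, mle and mof held no consensus region, and a peak was called only at msl-1 and mle, in replicate 1, with folds of 2.27 and 2.46. Without replicate 1 the list count fell to 1 and without replicate 2 to 2.

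Genes of factors that bind GA repeats, or that partner such a factor, were bound in 4 of 4 cases, against 21.8% of all genes. At psq, the gene of the BTB-domain GA-repeat binder Pipsqueak (2R 10557888 to 10617280), 14 consensus regions lay in or at the gene, 6 of them in all 3 libraries. The strongest, at 2R 10592308 to 10593359, had folds of 7.19, 8.72 and 3.12. IgG also had a peak in psq, with a fold of 42.6, which overlapped no region held by at least 2 CLAMP libraries. At Trl, the GAGA factor gene (3L 14747929 to 14761049), 4 regions lay inside the gene between 3L 14754976 and 14759596. The first was held by all 3 libraries with folds of 3.74, 3.62 and 2.25, and the others by replicates 1 and 2. At lolal, the gene of a BTB protein that partners GAGA factor (2R 18154095 to 18158192), 1 region at 2R 18156608 to 18158229 had folds of 7.41, 9.77 and 2.90. IgG had no peak at Trl, lolal or Clamp. The count was 3 of 4 without replicate 1 or 2.

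**Figure D4:**
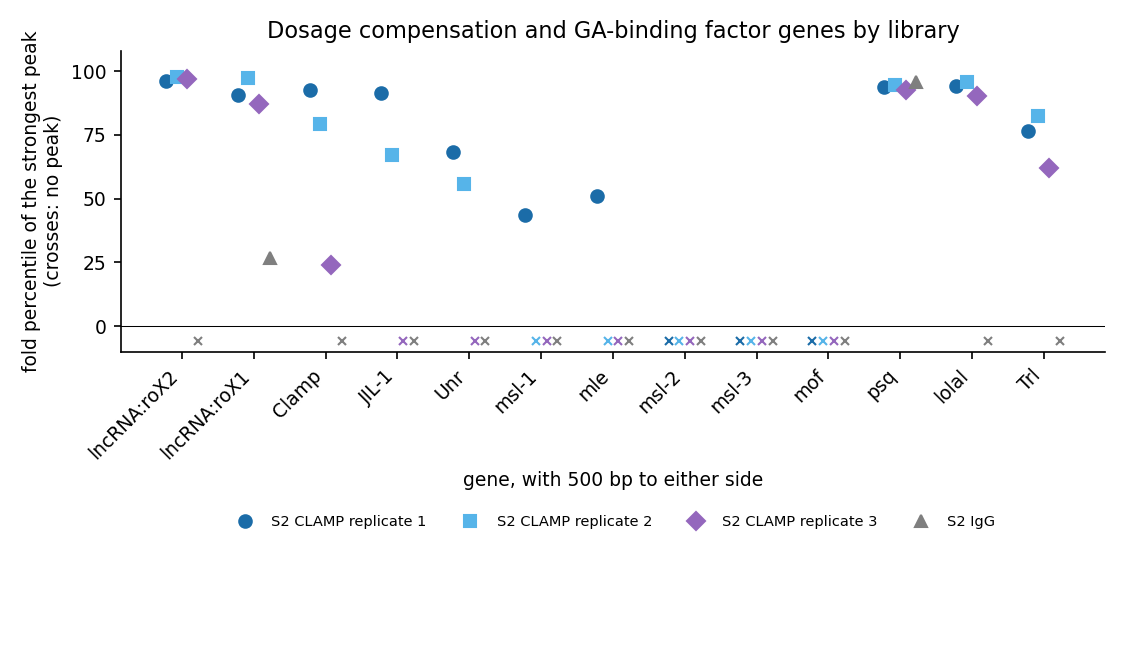
Percentile of deposited fold within its own list for the strongest peak at each dosage compensation or GA-binding factor gene, by library, with crosses where no peak was called. The roX2 points lie at 96.1, 97.6 and 97.0 for the 3 CLAMP libraries, while msl-2, msl-3 and mof have no peak in any of the 4.

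The strongest consensus regions of all 3 libraries lay on X, 2L, 2R, 3L and 3R. First by mean percentile was an intergenic region at X 9956560 to 9956924, 6529 bp from CG1791, with folds of 10.5, 33.3 and 11.8 in replicates 1 to 3. The next were at 2L 23065787 to 23066144, 730 bp from the splicing factor gene Spf45, with folds of 13.6, 16.5 and 6.48, and inside CG11050 at 2L 6612225 to 6613077, with folds of 10.3, 23.6 and 6.74. A region 9432 bp from Scp1 (2R 2977484 to 2977909) had folds of 12.6, 14.3 and 7.40. The regions near Spf45 and Scp1 lay in gene-poor windows. Plc21C, a phospholipase C gene, held a region at 2L 347957 to 348490 with folds of 21.5, 23.4 and 4.33. A second Plc21C region of like fold, at 2L 354830 to 355393, was set aside for IgG.

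Further down this order, Hmt4-20, a histone H4 methyltransferase gene, held a region at X 654193 to 656037 with folds of 11.7, 18.4 and 5.66. A region at 3R 27244703 to 27246128 covered lncRNA:CR46085 and an end of CG18766 and had folds of 12.2, 16.03 and 5.29. Ir8a, an olfactory co-receptor gene, held one at X 9235121 to 9235537 with folds of 8.0, 26.5 and 13.6, and an IgG peak of fold 29.9 lay 1246 bp away. The region at 3L 3148065 to 3149649 lay over neighbouring ends of Usp5, a deubiquitinase gene, and BtbVII, with folds of 9.44, 18.9 and 5.51. That at X 6012946 to 6013829 lay over neighbouring ends of mab-21 and lncRNA:CR44499, with folds of 13.2, 15.4 and 3.93. Percentiles within the list were 95.5 or higher in every library for all 10 regions.

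Among the 2 strongest regions of each arm that all 3 libraries held, those not yet given lay at en, Tet, FBXO11, and on chromosome 4. The region at the end of en, a homeobox gene, had folds of 10.2, 14.0 and 3.55 (2R 11527745 to 11528674). At Tet, which encodes a dioxygenase, a region inside the gene had folds of 11.04, 14.6 and 3.97 (3L 2866790 to 2867977), and that at FBXO11, an F-box gene, 18.5, 22.6 and 3.48 (3R 9808620 to 9809402), with an IgG peak of fold 32.5 at a distance of 4260 bp. On chromosome 4, which has only 45 consensus regions, the first region lay 46249 bp beyond Cadps at 4 1318008 to 1319558, with folds of 10.6, 4.96 and 3.03, and its second inside CG11360 at 4 682639 to 683208, with folds of 2.52, 7.81 and 6.01. Their mean percentiles were 91.7 and 81.5. The median strength of all consensus regions on 4 was 58.5, between the 56.5 of 2L and the 59.3 of 2R.

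For the gene lists, folds are those of the consensus region of highest strength at a gene, and other peaks can lie in the same gene. Replicate 3 had such a peak outside the region given at lncRNA:Hsromega, bru2, mub, Ubx, E2f1 and srp, with folds of 3.12, 2.83, 1.81, 2.32, 2.75 and 2.25.

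Heat shock genes were bound almost throughout, with 17 of 18 holding a consensus region against 21.8% of all genes. Their median length was 2284 bp, close to the 1710 bp of all genes, and 18 distinct regions lay behind the 17 genes. The exception was Hsp67Bc. The strongest regions were at lncRNA:Hsromega, a heat-inducible noncoding RNA gene, with folds of 12.04 and 10.6 in replicates 1 and 2, and at the chaperone genes Hsp70Ba and Hsp68. The Hsp70Ba region (3R 12467664 to 12468575) had folds of 10.8, 9.0 and 3.12 and the Hsp68 region (3R 24057187 to 24058227) folds of 8.46, 12.3 and 2.66 in replicates 1 to 3. Copies of Hsp70 are nearly identical and share reads, so they are uncertain one by one. Regions of all 3 libraries lay at 7 of the 18 genes. The count was 4 without replicate 1, 9 without replicate 2 and 16 without replicate 3.

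Ecdysone response genes, which answer the moulting steroid, were bound in 19 of 23 cases, through 114 distinct regions. These genes are long, with a median of 31127 bp, and long genes were more often bound. Eip74EF, an ETS factor gene, held 13 regions, 9 of them in all 3 libraries, and the strongest had folds of 6.72, 9.18 and 5.12 (3L 17577347 to 17578415). Hr39, a nuclear receptor gene, held a region with folds of 9.45, 8.95 and 3.64 (2L 21250402 to 21251259), and tai, the gene of a coactivator of the ecdysone receptor, one with 9.18, 10.3 and 2.99 (2L 9204948 to 9205829). No consensus region lay at Hr38, ImpE1, ImpE2 or MsrA. The count was 11 without replicate 1, 12 without replicate 2 and 18 without replicate 3.

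Among the regulators of splicing, 18 of 27 genes were bound, but only 3 by a region of all 3 libraries, and 11 were bound with lists of equal length. The strongest lay inside bru2, an RNA-binding protein gene, with folds of 10.4 and 15.9 in replicates 1 and 2 (2L 12365870 to 12366638). SRPK, the SR protein kinase gene, shared a region with the replication licensing gene dup, with folds of 13.8, 18.9 and 2.90 (2R 15380428 to 15381569). At mub, a KH-domain gene, the strongest region had folds of 7.58 and 11.1 in replicates 1 and 2. Of the sex determination genes 9 of 23 were bound, 3 by a region of all 3 libraries. Flacc, of the m6A writer complex, had folds of 9.94 and 13.6 in replicates 1 and 2. That region lay within 500 bp of Flacc but did not overlap it, and Flacc held none with windows around summits. Ythdc1, the nuclear m6A reader, had 12.6, 18.9 and 3.32, and emc, whose product holds back helix-loop-helix proteins, had 13.9, 5.68 and 3.08. Counting only regions that overlap the gene itself, 6 of the 23 were bound. Sxl and dsx held 1 consensus region each, in replicates 1 and 2. The gene fru, of 131314 bp, held 7, of which 2 were in all 3 libraries. The genes tra, tra2 and sisA held none.

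Homeotic and segmentation genes divided evenly, with 13 of 26 bound. All 8 homeotic genes of the list were among them (lab, pb, Dfd, Scr, Antp, Ubx, abd-A and Abd-B), and none of these held a region of all 3 libraries. Binding at some of them was weak or sparse. At pb the folds were 1.51 and 1.88 in replicates 1 and 2, at percentiles of 3.13 and 23.5. Antp, of 102976 bp, and Ubx, of 77804 bp, held 1 region each, or 0.971 and 1.29 per 100 kb. With a q-value of 0.0001 or less, 12 of the 26 genes were bound. Scr had folds of 8.40 and 12.1 in replicates 1 and 2 (3R 6848468 to 6849185) and Ubx 9.08 and 10.9 (3R 16702743 to 16703397). Of the pair-rule and gap genes of the list, gt and hry held 1 region each, in all 3 libraries at gt (folds 2.46, 2.36 and 3.19) and in replicates 1 and 2 at hry (3.44 and 4.79). The genes eve, ftz, hb, Kr, kni, run, prd, odd, slp1 and slp2 held none. Those unbound genes were 1425 to 6843 bp long, and the 8 homeotic genes 10593 to 102976 bp. Of all genes in the longest quintile, of 5126 bp or more, 48.2% were bound, against 10.8% to 24.3% in the shorter quintiles. The part of gene length in this split was not tested. Polycomb group genes were bound in 6 of 17 cases, among them Asx, with folds of 8.65 and 10.3 in replicates 1 and 2, and Su(z)2 and ph-d, with 8.56, 11.7 and 2.53 and with 5.29, 8.38 and 2.68. The near-identical neighbours ph-p and ph-d may share reads. The insulator protein genes were bound in 4 of 11 cases, with folds of 7.27 and 10.5 at su(Hw) and of 1.89 and 4.76 at the region shared by Ibf1 and Ibf2 in replicates 1 and 2. At mod(mdg4) the folds were 7.18, 13.4 and 2.64. The insulator count was 2 with a q-value of 0.0001 or less and with lists of equal length.

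Hemocyte genes, which mark the blood cell lineage that S2 cells resemble, were bound in 12 of 20 cases, 2 of them by a region of all 3 libraries. The Runx gene lz held 2 regions, one at its end with folds of 9.89 and 4.16 in replicates 1 and 2 and one inside with 5.56 and 5.73 in replicates 2 and 3. In replicates 1 and 2 the strongest region had folds of 4.62 and 9.05 at srp, a GATA factor gene, and of 4.30 and 7.31 at Pxn, a peroxidasin gene. The marker genes Hml, NimC1 and Col4a1 held none, while eater and vkg held 1 region each. Cell cycle genes were bound in 11 of 24 cases, with E2f1, the S-phase transcription factor gene, holding 9 regions and Cdk4 holding 3. The strongest at E2f1 had folds of 6.95 and 8.62 and at Cdk4 6.41 and 9.13, in replicates 1 and 2. Of 10 zygotic activators and coregulators 6 were bound. In replicates 1 and 2 the folds were 10.04 and 14.7 at opa, 4.86 and 7.0 at fs(1)h, a bromodomain gene with an IgG peak of fold 7.79 at 295 bp from the region, and 4.61 and 6.92 at the acetyltransferase gene nej, where a region with folds of 5.04 and 9.09 was set aside for IgG.

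Every list lay above the 21.8% of all genes, and every list other than the histone cluster had a median gene length above the 1710 bp of all genes. The list with the lowest share was the Polycomb group, at 35.3%. Among all genes of 5126 bp or more, the longest quintile, 48.2% were bound, and among those of 2249 to 5124 bp 24.3%. The Polycomb list, with a median length of 5221 bp, thus lay below the share of the longest quintile. The homeotic and segmentation list, with a median of 6748 bp and 50% bound, lay close to it. A share above 21.8% is therefore not by itself a trait of a list. With regions of all 3 libraries the shares ran from 9.09% for insulator protein genes to 75% for GA-binding factors, against 6.02% of all genes. Without replicate 1 the homeotic, hemocyte, sex determination, splicing, cell cycle, insulator and zygotic lists held 3, 3, 3, 4, 4, 1 and 1 bound genes, and without replicate 2 they held 3, 2, 3, 3, 4, 1 and 1. Over all 17684 genes the number bound also fell, from 3855 to 1104 without replicate 1 and to 1189 without replicate 2. The falls of the lists just named are thus largely shared by all genes. Some other lists fell less in proportion. Ecdysone response genes went from 19 to 11 without replicate 1 and to 12 without replicate 2. Histone genes went from 72 to 41 and 45. GA-binding factors went from 4 to 3 and Polycomb group genes from 6 to 4 in both cases. Heat shock genes went from 17 to 9 without replicate 2.

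**Figure D5:**
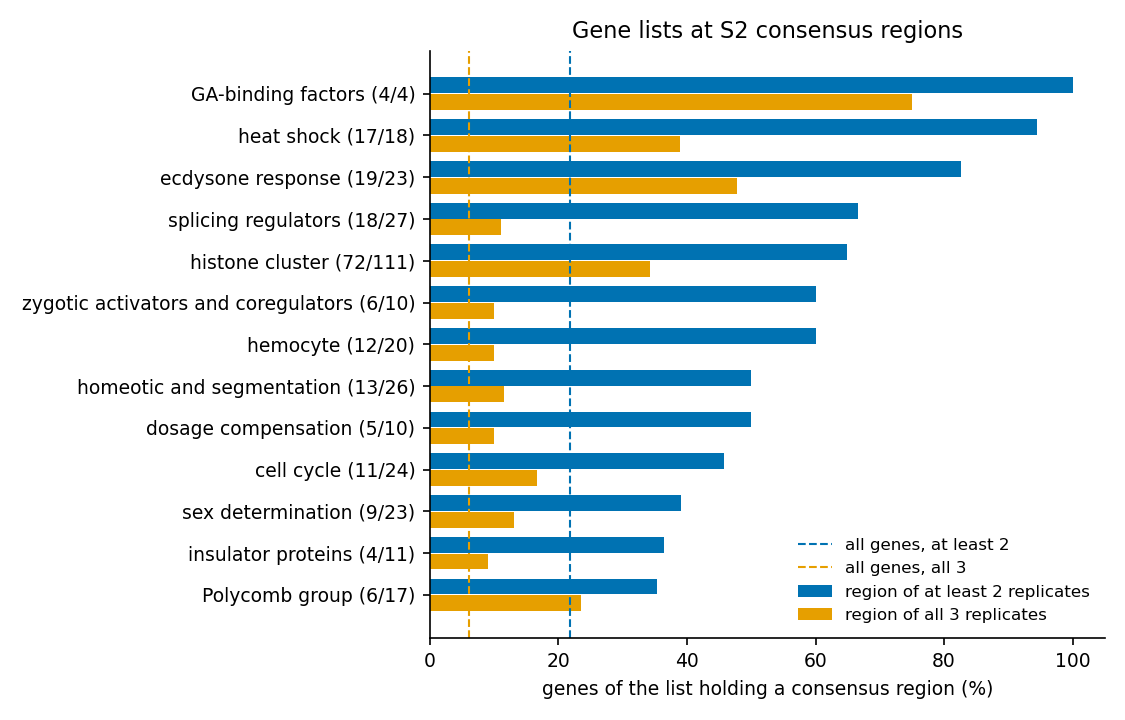
Share of each gene list (%) holding a consensus region of at least 2 replicates (blue) or of all 3 (orange), with the shares of all genes as dashed lines at 21.8% and 6.02%. Heat shock genes reach 17 of 18 and ecdysone response genes 19 of 23, and the lists differ in gene length.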

How the data were processed

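CUT&RUN of S2 cells gave a separate peak list for each library, with no pooling of samples. FastQC, Trimmomatic, Bowtie2, MACS2 and the build dm6 are named, without versions, per the submitters' processing notes. For duplicate removal and for IgG as a control of peak calling, the sources used here say nothing. The lists deposited by the authors give per summit a fold (ratio over the caller's background), a −log10 p-value, a −log10 q-value and a score that was not used.

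Rows with the same interval were joined, keeping the strongest summit by p-value and the highest fold. Intervals on X, 2L, 2R, 3L, 3R and 4 sharing at least 1 bp were merged. Strength is the mean, over holding libraries, of the percentile of the highest fold within its list. Genes are those of a RefSeq table of Release 6 plus ISO1 MT, the assembly dm6 represents. A gene holds a region that overlaps it or the 500 bp to either side. The code was tested on simulated peaks, with Python 3.11.15, pandas 2.3.3 and scipy 1.17.1.

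Libraries were compared by exact permutation tests. Regions and genes were counted without enrichment tests. Wilson intervals (95%) over regions cover counting error only, as regions of the same libraries are not replicates. Reads copied by PCR are not independent molecules either. The title of replicate 3 and its deposited list carry different internal numbers, and the title was followed. Named genes were all dosage compensation and GA-binding factor genes, and those at the 10 strongest regions of all 3 libraries. Added were genes at the 2 strongest such regions per arm, the 5 with most regions, and the 3 strongest of each other list. The histone genes, and other members named beside these, were chosen after their values were seen. Members and lists were chosen with earlier results of these data known. Of the 18 Polycomb genes 17 matched the table. Alternatives were a stricter q-value, other overlap rules, all 3 libraries, no IgG filter, shorter lists, other distances and each replicate left out.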

Additional observations from a re-analysis of the deposited data

Results flagged for a closer look

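Outside the main arms, 91 regions on Y were held by at least 2 S2 CLAMP libraries and overlapped no IgG peak, 55 of them in all 3. They drew attention because the main comparison does not use Y. In CLAMP replicates 1 to 3 there were 169, 206 and 160 Y peaks among 9084, 9016 and 5705 in all. IgG had 62 among 1240, so Y took a larger share of the IgG list than of any CLAMP list. A further 48 Y regions of at least 2 libraries overlapped an IgG peak. On the mitochondrial genome 3 such regions were found, but IgG had 13 peaks there, more than the 11, 9 and 10 of the CLAMP libraries.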

How the results depend on the processing

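With q-values of 0.0001 or less, the X share was 22.2%, the intergenic share 19.0% and the width difference from IgG 82.3 bp. Windows around summits gave a gene-end share of 28.6%, an intergenic share of 22.7% and a width of 242 bp, short by construction. Requiring all 3 libraries gave 1500 regions, 1065 genes, 17.1% on X, 21.7% at gene ends, 32.6% intergenic and a width of 918 bp. With no region set aside for IgG, 29.5% lay at gene ends and 22.8% were intergenic. Lists of equal length gave 21.8% on X, 33.3% at gene ends, 18.1% intergenic and a width of 763 bp. Cut to the IgG list, the width difference was 353 bp. Gene ends within 200 and 1000 bp took 20.4% and 40.5%. Without gene-poor windows, an alternative chosen after seeing the data, 22.4% lay on X, 34.9% at gene ends and 14.1% were intergenic. Leaving out each replicate gave 1708 to 4947 regions, 1104 to 3651 genes, 16.5% to 21.4% on X (17.6% of the arm length), 18.3% to 31.9% at gene ends, 18.0% to 37.5% intergenic and widths of 663 to 762 bp. The differences from IgG then ran from -17.6 to -13.6 points for X, 8.03 to 18.1 points for gene ends and -55 to 34 bp for width. Of 58 named genes with a region, 58 still held one without replicate 3, 37 without replicate 1 and 38 without replicate 2. Elsewhere the cause was not tested. The depth is unknown. No paired analysis was possible because the IgG group holds 1 library with no replicate number.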

Other observations

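Noncoding genes held consensus regions at unequal rates. Antisense RNA genes were bound in 112 of 503 cases (22.3%), small nucleolar RNA genes in 32 of 269 (11.9%) and pseudogenes in 29 of 245 (11.8%), against 23.6% of protein-coding genes. Among long genes not named above, ush, the gene of a GATA factor partner in blood cells, held 15 regions, 6 of them in all 3 libraries. Eip63E, a cyclin-dependent kinase gene, held 9, of which 7 were in all 3. In all, 30 genes held 10 or more regions.

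Gene-poor windows differed between arms. On 2L they held 58.6 consensus regions per Mb against 40.4 in the other windows of the arm, and on 3L 25.3 against 37.8. Further stretches of 100 kb rich in regions lay around Tlk, a protein kinase gene (X 3700001 to 3800000, 20 regions), and at 3L 600001 to 700000, where 19 regions lay in a stretch with the bantam miRNA gene mir-ban.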
